A study of Mus musculus with 20 samples.

Results

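The 10 genes Atf4, Atf3, Atf5, Ddit3, Trib3, Chac1, Sesn2, Asns, Psat1 and Phgdh, out of 21900 protein-coding genes, were followed through the histone marks of fasted mouse liver. They were taken from a list of integrated stress response and serine synthesis genes, not from measured values. Each gene was given those of the authors' deposited consensus intervals of a mark whose midpoint lay in its RefSeq gene body or within 10 kb of it. By this rule the genes held 54 of the 65776 H3K27ac intervals, 64 of the 103014 H3K4me1 intervals and 46 of the 46568 H3K9ac intervals.

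In the integrated stress response, kinases that sense amino acid shortage, misfolded protein, haem loss or double-stranded RNA phosphorylate the translation factor eIF2-alpha. General translation then falls while the Atf4 message is translated better, and the ATF4 protein, paired with C/EBP proteins, binds the promoters of stress and amino acid genes. In liver the pathway is known to respond to amino acid shortage, mitochondrial faults and endoplasmic reticulum stress.

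The marks were mapped by ChIP-seq, the sequencing of DNA pulled down with antibodies to a histone mark, in flash-frozen liver of 9-week-old male C57BL/6 mice, all fasted for 24 hours. The genotypes were wild type (WT), Cpt2 L-/- (a Cpt2 knockout in the liver, here Cpt2 KO), Ppara -/- (a Ppara knockout with no tissue named, here Ppara KO) and Cpt2 L-/- ; Ppara -/- (double knockout, DKO). Cpt2 is a mitochondrial enzyme needed to burn long-chain fatty acids, and PPARα is the nuclear receptor that switches on fatty acid oxidation genes in fasting. H3K27ac marks active promoters and enhancers and H3K4me1 marks enhancers, and both were profiled in 2 livers of each genotype, while H3K9ac, a mark of active promoters, had 1 library from a WT and 1 from a Cpt2 KO liver. The liver numbers in the peak names were the same for both marks in 8 of 8 genotype and replicate pairs, so a replicate number stands for 1 liver in both. The driver of the Cpt2 deletion is not given in the sources used here, and all livers were fasted, so no fed state enters any comparison.

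The value of an interval in a library is the highest fold enrichment over pooled input among that library's overlapping peaks, and an interval with no such peak has no call. The lists held 44454 to 48929 H3K27ac peaks and 61189 to 72151 H3K4me1 peaks, and read depth is not known. All 6 hepatocyte marker genes had H3K27ac peaks in all 8 libraries, and markers of other liver cell types had peaks too. Of 4 lymphocyte markers 1 to 2 had H3K27ac peaks in each library (Cd3e and Ms4a1 in none), and of 4 bile duct markers 0 to 1 (Sox9 in 6 libraries, Krt19, Krt7 and Epcam in none). Liver is a mixture, so fewer marked cells and less mark per cell cannot be told apart. In these lists 0.84% to 0.949% of H3K27ac peak numbers and 0.207% to 0.407% of H3K4me1 peak numbers were skipped. A skipped number lay in or beside the windows of 2 of the 10 genes, Atf4 and Atf5.

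Promoter sequences, RefSeq on GRCm38.p6 and running from 250 bases before to 50 after the gene start, were matched for 10 of 10 genes. The C/EBP-ATF element searched for was TGATGNAA, on both strands, with N any base. It was present in 4 of the 10 promoters, those of Atf3, Trib3, Chac1 and Asns, against 644 of 17492 protein-coding promoters (3.68%). Those 4 are shown because they carry the letters that ATF4 with a C/EBP partner is known to bind, and Psat1 is shown because an H3K9ac peak was called over its promoter in 1 of 2 livers. Each runs 5′ to 3′ along the gene's own strand, with the element in capitals:

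Atf3: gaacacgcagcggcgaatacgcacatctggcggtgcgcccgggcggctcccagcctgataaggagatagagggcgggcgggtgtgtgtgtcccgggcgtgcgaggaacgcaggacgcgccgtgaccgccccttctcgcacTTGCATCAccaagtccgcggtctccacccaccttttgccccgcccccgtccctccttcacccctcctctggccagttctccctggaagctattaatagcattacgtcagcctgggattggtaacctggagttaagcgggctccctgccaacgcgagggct
Trib3: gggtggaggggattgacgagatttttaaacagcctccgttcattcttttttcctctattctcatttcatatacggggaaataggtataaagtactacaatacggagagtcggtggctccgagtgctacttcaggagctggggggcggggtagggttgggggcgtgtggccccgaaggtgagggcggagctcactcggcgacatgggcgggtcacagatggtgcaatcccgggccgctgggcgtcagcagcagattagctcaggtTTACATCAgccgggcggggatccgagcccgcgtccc
Chac1: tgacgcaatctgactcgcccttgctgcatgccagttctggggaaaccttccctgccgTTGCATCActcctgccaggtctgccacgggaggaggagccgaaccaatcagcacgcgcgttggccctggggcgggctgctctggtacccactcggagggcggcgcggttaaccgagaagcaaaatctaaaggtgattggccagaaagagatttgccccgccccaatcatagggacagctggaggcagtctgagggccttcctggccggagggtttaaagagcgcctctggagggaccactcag
Asns: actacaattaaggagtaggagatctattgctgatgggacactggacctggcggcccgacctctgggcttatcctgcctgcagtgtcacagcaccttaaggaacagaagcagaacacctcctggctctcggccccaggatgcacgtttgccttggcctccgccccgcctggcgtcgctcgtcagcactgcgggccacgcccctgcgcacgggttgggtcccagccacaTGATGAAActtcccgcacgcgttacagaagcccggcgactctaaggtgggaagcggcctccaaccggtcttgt
Psat1: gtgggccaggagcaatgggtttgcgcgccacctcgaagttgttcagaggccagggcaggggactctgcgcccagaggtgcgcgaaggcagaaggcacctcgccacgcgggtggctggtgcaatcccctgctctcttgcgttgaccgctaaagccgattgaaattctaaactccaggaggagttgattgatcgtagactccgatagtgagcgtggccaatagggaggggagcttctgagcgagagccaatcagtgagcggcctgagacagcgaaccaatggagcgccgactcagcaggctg

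The Atf3 sequence is chr1:191183284-191183583 on the minus strand, and its element started at position -110, read on the opposite strand, where -1 is the base before the gene start. The Trib3 sequence is chr2:152344011-152344310 on the minus strand, with the element at +15 on the opposite strand. The Chac1 sequence is chr2:119350992-119351291 on the plus strand, with the element at -193 on the opposite strand. The Asns sequence is chr6:7693160-7693459 on the minus strand, with the element at -23 in the sense of the gene. The Psat1 sequence is chr19:15925010-15925309 on the minus strand and held none of the searched letters. The cyclic AMP response element TGACGTCA, the endoplasmic reticulum stress element and the PPAR-type direct repeat 1, each searched on both strands, were found in 0 of the 10 promoters, against 2.33%, 0.16% and 0.0515% of all. Guanine and cytosine made up 47.7% of the Phgdh window and 58.3% to 68% of the other 9, where the median of all promoters was 56.3%. A match or its absence describes letters and not binding.

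H3K27ac covered the start of 6 genes, Atf3, Atf5, Ddit3, Trib3, Chac1 and Sesn2. At 4 of them, Atf5, Ddit3, Sesn2 and Trib3, a peak reached the 300-base promoter window in all 8 libraries, which was true of 32.7% of 17492 promoters. The Atf3 window was reached in 5 libraries, and not in WT replicate 1 or either Ppara KO library. The Chac1 window was reached in 6, and not in either Cpt2 KO library. In the libraries without a call there, the folds given below for the start intervals come from peaks beside the window. At Ddit3 this also holds in Cpt2 KO replicate 1, both Ppara KO libraries and DKO replicate 1, where a peak beside the window was higher. The windows of Asns, Psat1 and Phgdh were reached in none, as were 52.3% of all promoters.

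Atf4 is the transcription factor at the centre of the response, and it is regulated largely at translation. Its start was not analysed here, because each of the 8 H3K27ac lists skipped 1 peak number across chr15:80252558-80257222, a stretch that holds the gene start at 80255184. In 5 of the 8 H3K4me1 lists a number was skipped there as well. The nearest upstream H3K27ac interval, chr15:80247596-80252558 in Mief1, had folds of 9.50 in WT replicate 1, 10.8 and 11.8 for Cpt2 KO, 9.56 and 10.0 for Ppara KO, and 11.2 and 11.4 for DKO. WT replicate 2 had no call there, and in that library the skipped number lay in a gap that took in the whole interval. Downstream, at Rps19bp1 (chr15:80263725-80264846), the folds were 7.94 and 11.1 for WT, 6.75 and 10.2 for Cpt2 KO, 4.29 and 5.29 for Ppara KO, and 8.29 and 8.33 for DKO. Both Ppara KO livers lay below the other 6. The log2 difference of Ppara KO from WT was -0.97 ± 0.29 (SE), which did not pass (limma adjusted p = 0.0625). H3K4me1 in the Mief1 interval chr15:80247735-80252584 was 11.6 and 10.6 for WT, 8.29 and 10.6 for Cpt2 KO, 8.40 and 11.7 for Ppara KO, and 10.1 and 10.5 for DKO. Both DKO livers lay below both WT livers, and no contrast passed (DKO against WT -0.10 ± 0.27, limma adjusted p = 0.862).

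Atf3 is a stress-induced repressor and activator of transcription. At the start interval, chr1:191182322-191183360, H3K27ac folds were 7.25 and 14.8 for WT, 11.9 and 11.8 for Cpt2 KO, 13.0 and 12.3 for Ppara KO, and 16.4 and 24.1 for DKO. The 2 DKO livers were the highest, and the WT livers differed from each other by more than the mean of any single knockout differed from the WT mean. DKO against WT gave a log2 difference of 0.65 ± 0.28 (limma adjusted p = 0.118). In the last part of the gene, at chr1:191169927-191172028, H3K4me1 folds were 6.69 and 8.29 for WT, 15.8 and 9.78 for Cpt2 KO, 14.1 and 14.9 for Ppara KO, and 13.7 and 10.4 for DKO. Both WT livers were lowest and no contrast passed; the DKO difference from WT was 0.68 ± 0.28 in log2 (limma adjusted p = 0.205).

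Atf5, a relative of Atf4 whose translation is also raised under stress, lay in the widest H3K27ac interval of the set, chr7:44814560-44821950, which also touches Nup62 and Il4i1b. Its folds were 17.1 and 22.9 for WT, 20.8 and 18.6 for Cpt2 KO, 18.2 and 19.6 for Ppara KO, and 21.2 and 25.7 for DKO. In these folds every genotype overlapped WT. With each library's median log2 fold set to 0, Cpt2 KO (0.68 and 0.65) lay below WT (0.79 and 1.0). Cpt2 KO against WT did not pass (-0.23 ± 0.18, limma adjusted p = 0.419). H3K4me1 beside it (chr7:44816822-44821953) was 8.27 and 6.91 for WT, 10.2 and 7.98 for Cpt2 KO, 8.82 and 9.01 for Ppara KO, and 10.2 and 8.84 for DKO, with no contrast passed. The H3K27ac lists skipped a number in all 8 libraries between chr7:44821950 and 44851429, a stretch that lies mostly beyond the 10 kb window.

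Ddit3 encodes CHOP, the factor that carries prolonged stress towards cell death. Over its start (chr10:127289156-127291886, shared with Mbd6) H3K27ac folds were 18.4 and 18.3 for WT, 22.4 and 17.8 for Cpt2 KO, 20.9 and 21.2 for Ppara KO, and 23.3 and 31.0 for DKO. The highest peaks that reached the promoter window had folds of 18.4 and 18.3 for WT and 13.3 and 17.8 for Cpt2 KO. They had 11.1 and 11.8 for Ppara KO, and 15.4 and 31.0 for DKO. No contrast passed for the whole interval, and DKO against WT gave 0.26 ± 0.19 in log2 (limma adjusted p = 0.357). H3K4me1 just upstream (chr10:127289333-127290427) had the lowest adjusted p of that mark among the 10 genes. Its folds were 4.78 and 4.38 for WT, 11.6 and 6.95 for Cpt2 KO, 7.32 and 10.2 for Ppara KO, and 7.94 and 14.9 for DKO. All 6 knockout livers lay above both WT livers. The log2 difference of DKO from WT was 1.25 ± 0.33, which did not pass (limma adjusted p = 0.088). With 1 library left out at a time the difference ranged from 0.83 to 1.69.

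Trib3 is a pseudokinase induced by ATF4 and CHOP that damps their activity. At its start, chr2:152342427-152345009, H3K27ac folds were 8.0 and 9.38 for WT, 14.0 and 11 for Cpt2 KO, 13.3 and 12 for Ppara KO, and 15.6 and 21.4 for DKO. Every knockout liver was above both WT livers. H3K27ac in DKO rose over WT by 0.78 ± 0.24 in log2 (limma adjusted p = 0.0337), where the means were 18.5 ± 4.14 (SD, n = 2) and 8.69 ± 0.972. The call was lost, with limma adjusted p from 0.0671 to 0.185, when any one of the 4 WT and DKO libraries was left out. Trib3 also gave the lowest adjusted p for Ppara loss among the tested intervals, with Ppara-null above Ppara-intact livers by 0.52 ± 0.17 in log2 and no overlap of centred values, but short of the threshold (limma adjusted p = 0.0748). An upstream interval (chr2:152346235-152347572) held folds of 6.08 and 6.30 in WT against 7.87 to 13.1 in the 6 knockout livers (DKO against WT 0.61 ± 0.26, limma adjusted p = 0.112). The interval downstream at Rbck1 (chr2:152331754-152333824) had folds of 13.2 and 13.2 for WT, 18.2 and 17.8 for Cpt2 KO, 10.9 and 15.6 for Ppara KO, and 16.4 and 19.9 for DKO, and no contrast passed. H3K4me1 in the gene body (chr2:152336848-152340476) was 14.2 and 12.8 for WT, 12.1 and 10.6 for Cpt2 KO, 8.94 and 10.0 for Ppara KO, and 10.8 and 9.72 for DKO, with no contrast passed.

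**Figure D1:**
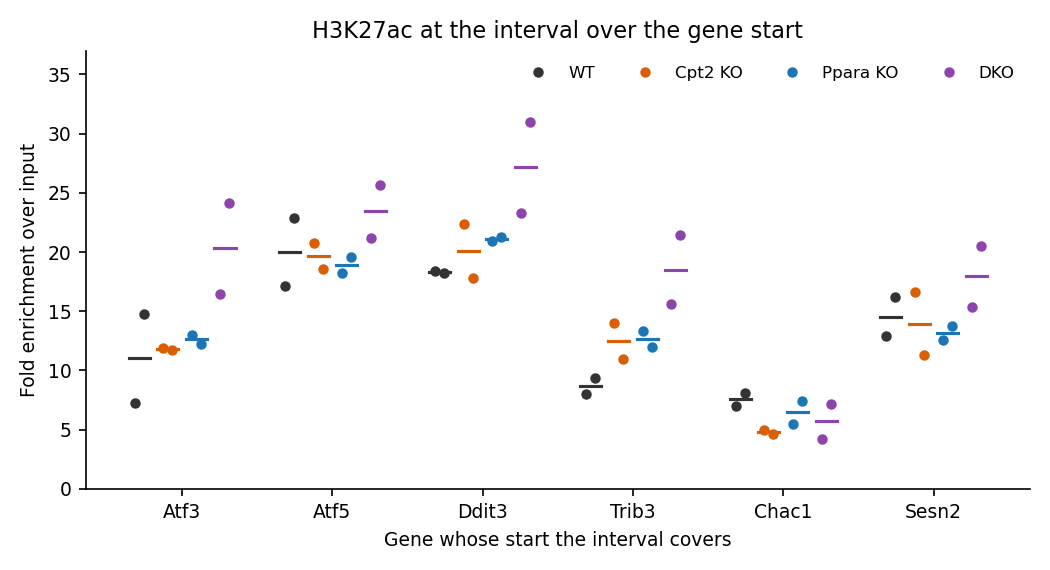
H3K27ac fold enrichment over input (y axis, linear) at the interval over the start of 6 genes (x axis). Points are single livers, short lines the means of 2 livers of a genotype. Values are the highest peak in the interval, which need not reach the promoter window. At Trib3 both WT livers, 8.0 and 9.38, lie under the 6 knockout livers, at Chac1 the Cpt2 KO livers, 5.01 and 4.61, lie under WT, and at Atf5 each knockout overlaps WT in these uncentred folds.

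Chac1 degrades glutathione and is a target of ATF4. The H3K27ac interval that covers its start is chr2:119351098-119351748. Folds in it were 7.03 and 8.13 for WT and 5.01 and 4.61 for Cpt2 KO. They were 5.46 and 7.46 for Ppara KO and 4.22 and 7.15 for DKO. On the centred log2 scale, on which each library's median fold is set to 0, the Cpt2-null livers lay between -1.53 and -0.96 and the Cpt2-intact livers between -0.88 and -0.49, without overlap. Uncentred, DKO replicate 2 lay above both WT replicate 1 and Ppara KO replicate 1. H3K27ac fell by 0.70 ± 0.20 in log2 in Cpt2-null against Cpt2-intact livers (limma adjusted p = 0.0343). It did not pass for Cpt2 KO against WT alone (-0.88 ± 0.28, adjusted p = 0.0508 by limma). H3K4me1 over the gene and its end (chr2:119352321-119356711) had folds of 9.72 and 10.2 for WT, 8.35 and 5.78 for Cpt2 KO, 7.78 and 5.75 for Ppara KO, and 5.46 and 6.62 for DKO. WT was highest and no contrast passed (lowest limma adjusted p = 0.186, DKO against WT).

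Sesn2, a leucine sensor that restrains mTORC1, held 9 H3K27ac intervals. Over the start (chr4:132509320-132510928) folds were 12.9 and 16.2 for WT, 16.6 and 11.3 for Cpt2 KO, 12.6 and 13.7 for Ppara KO, and 15.4 and 20.5 for DKO, with no contrast passed. Over the end of the gene and the bases past it, chr4:132490014-132494135, folds were 11.7 and 13.8 for WT, 14.0 and 8.36 for Cpt2 KO, 13.8 and 14.3 for Ppara KO, and 9.33 and 8.40 for DKO. The uncentred folds of the 2 sides overlap through Cpt2 KO replicate 1, and the centred ones do not (highest Cpt2-null 0.11, lowest Cpt2-intact 0.24). H3K27ac fell by 0.72 ± 0.19 in log2 in Cpt2-null livers (limma adjusted p = 0.0268) and by 0.82 ± 0.26 in DKO against WT (limma adjusted p = 0.0429). It did not pass for Cpt2 KO against WT alone (-0.46 ± 0.26, limma adjusted p = 0.261). The strongest H3K4me1 interval, chr4:132487098-132489912, had folds of 12.7 and 11.4 for WT, 16.2 and 11.2 for Cpt2 KO, 12.4 and 13.0 for Ppara KO, and 11.9 and 11.2 for DKO, with no contrast passed. The 3 intervals of other genes whose centred H3K27ac followed the Sesn2 end interval most closely over the 8 libraries were at Lipc (Pearson r = 0.98), Slco1b2 (0.972) and Wdfy4 (0.969), picked as the highest of 18267. For the Ddit3 H3K4me1 interval they were nearest Fndc3b (0.993), Nuak1 (0.986) and Plscr5 (0.977), of 19506. These are descriptions over 8 libraries that share 4 genotypes.

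Over the tested intervals, those with a call in all 8 libraries, the shares that passed lay near or below those of all intervals. The genes held 14 tested H3K27ac intervals from 7 genes and 20 tested H3K4me1 intervals. Under Cpt2 loss 2 of 14 passed, at Chac1 and Sesn2, both lower, which is 14.3% against 12.3% of all 18281 intervals in either direction and 7.38% lower. The median log2 difference was 0.01 over the 14 and -0.01 over all. Under Ppara loss 0 of 14 passed against 7.34% of all, with 3 at an unadjusted p under 0.05 (4226 of all 18281). DKO against WT gave 2 of 14, Trib3 higher and Sesn2 lower, against 20.2% of all, 8.62% higher and 11.5% lower. Cpt2 KO against WT gave 0 of 14 against 13.5% of all, with 2 at an unadjusted p under 0.05 (5606 of all 18281). Ppara KO against WT gave 0 of 14 against 6.42%, also with 2 (4603 of all). The interaction asks whether Cpt2 loss acts differently without Ppara. It gave 0 of 14 against 0.00547% of all, with 1 at an unadjusted p under 0.05 (2771 of all). Centred folds of the sides did not overlap at 2 of 14 intervals for Cpt2 (13.2% of all). They did not overlap at 11 for DKO and WT (60.1% of all). For Ppara this held at 2 (8.2% of all), the intervals that cover the starts of Ddit3 and Trib3. At Ddit3 the uncentred peaks that reached the promoter window overlapped between the Ppara states, and were lowest in Ppara KO.

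When 1 library at a time was dropped, the Chac1 call under Cpt2 loss held without DKO replicate 2 alone and was lost without each of the other 7 (limma adjusted p up to 0.12). The Sesn2 call under Cpt2 loss was lost without WT replicate 2, Cpt2 KO replicate 2, either Ppara KO library or DKO replicate 2 (up to 0.103 by limma), and the Sesn2 call in DKO against WT without any WT, Ppara KO or DKO library (up to 0.223 by limma). Without centring, all H3K27ac intervals shift by 0.27 in log2 in Cpt2-null against Cpt2-intact livers, the split of calls over all intervals goes from 896 higher and 1349 lower to 3504 higher and 432 lower, and the Chac1 and Sesn2 differences, -0.43 and -0.45, no longer pass. Other library properties moved with Cpt2 state. The smallest peak was 198 to 210 bases wide in Cpt2-intact and 217 to 223 in Cpt2-null H3K27ac libraries. The summed top folds of the 5 endothelial markers, all of them with peaks, were 65.4 to 78.1 in Cpt2-intact and 97.3 to 112 in Cpt2-null livers, and those of the 5 stellate cell markers, of which 1 to 4 had peaks and Hhip none, were 6.10 to 18.8 and 20.8 to 32.3. For the 5 Kupffer cell and macrophage markers, of which 3 to 4 had peaks, the sums were 35.8 to 40.8 and 41.1 to 75.2, and for the 4 lymphocyte markers 10.2 to 19.4 and 19.6 to 24.3. The bile duct markers went from 5.81 to 19.7 in Cpt2-intact and 0 to 9.57 in Cpt2-null livers, and the hepatocyte markers from 109 to 143 and 115 to 179. These marker sums are of folds that were not centred. The part of the markers in the results was not tested. With the smallest peak width as a covariate, 0 of all 18281 intervals passed by limma under Cpt2 loss, where 1426 had an unadjusted p under 0.05. The same fit gave 0 for Cpt2 KO (1418 by the unadjusted p) and 0 for DKO (1747 by the unadjusted p), each set against WT. The widths of Cpt2-intact and Cpt2-null libraries do not overlap, so in these contrasts the fit cannot tell peak width from Cpt2 state.

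**Figure D2:**
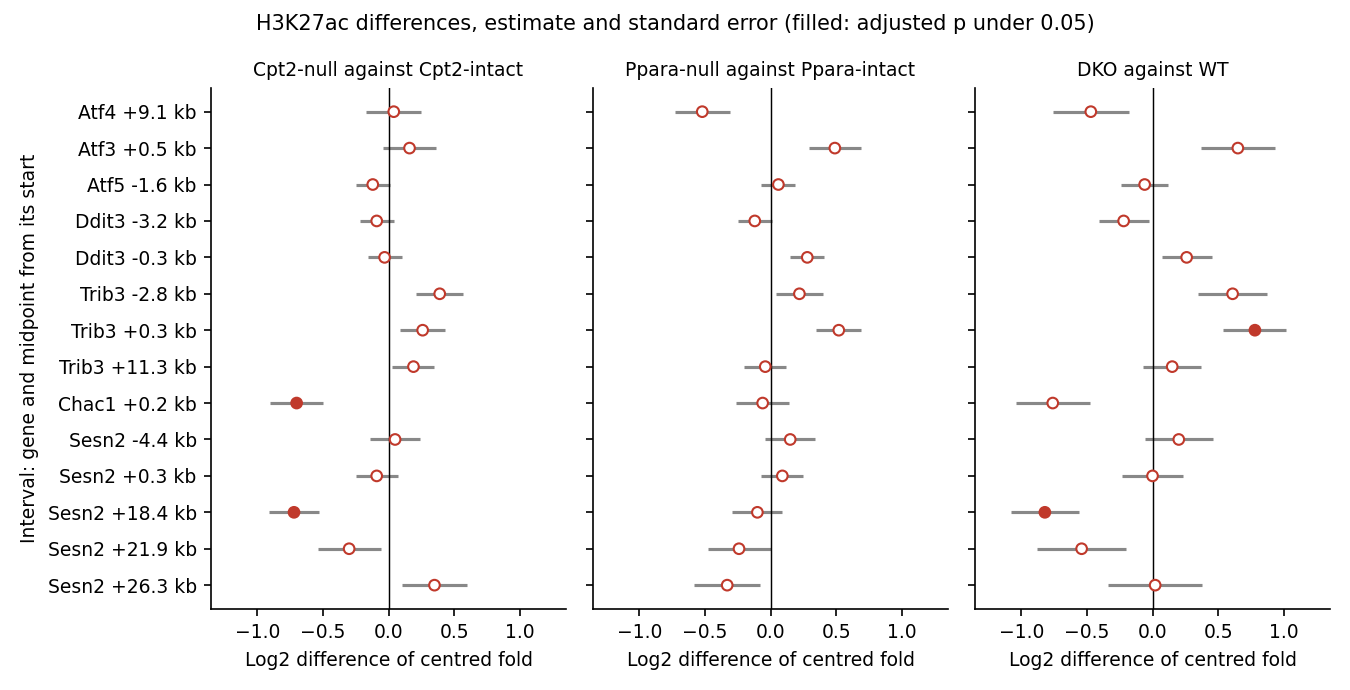
Log2 differences of centred H3K27ac fold (x axis, estimate with standard error) for the 14 tested intervals (y axis, gene and distance of the interval's midpoint from the gene start in kb) in 3 contrasts. Filled points have a limma adjusted p under 0.05: Chac1 and Sesn2 lower under Cpt2 loss, and Trib3 higher and Sesn2 lower in DKO against WT.

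In H3K4me1, 0 of 20 intervals passed in any of the 6 contrasts by limma. Over all 19526 intervals the share was 0% under Cpt2 loss, 0.128% under Ppara loss and 0.133% for DKO against WT. Between 1 and 7 of the 20 had an unadjusted p under 0.05, the 7 being in DKO against WT. Over all 19526 intervals 566 to 3793 did, the most also in DKO against WT. Centred folds did not overlap at 1 of 20 for Cpt2, inside Atf3 (3.5% of all), at 0 for Ppara (5.91% of all) and at 14 for DKO and WT (58.0% of all).

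Asns, Psat1 and Phgdh make asparagine and serine, and none of them had an interval called in all 8 libraries, so none could be tested. Psat1, which converts phosphohydroxypyruvate to phosphoserine, differed by genotype in where peaks were called at its end. H3K27ac peaks at chr19:15903847-15904547 (folds 10.4 and 6.43) and chr19:15904965-15905506 (9.40 and 9.80) were called in both Cpt2 KO livers and in none of the other 6. H3K4me1 at chr19:15903739-15904578, over the first of these, was called in all 4 Ppara-intact livers, at 7.20 and 11.8 in WT and 10.8 and 10.0 in Cpt2 KO, and in 0 of 4 Ppara-null livers. The second H3K4me1 interval, chr19:15905008-15905669, was called in the 2 Cpt2 KO livers alone (8.75 and 3.86). At the Psat1 promoter H3K4me1 (chr19:15925194-15925628) was called in 5 libraries, at 5.02 in WT replicate 2, 6.08 and 3.18 in Cpt2 KO and 3.56 and 4.86 in DKO. H3K9ac over the promoter printed above was called in the Cpt2 KO liver and not in the WT liver.

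Asns, asparagine synthetase, showed calls in Ppara-null livers. H3K27ac just inside the start, at chr6:7691175-7693134, was called in Ppara KO replicate 2 (9.17) and both DKO livers (6.97 and 6.23), and in none of the other 5. H3K4me1 beside it, at chr6:7690509-7691022, was called in the same 3 libraries (5.0, 5.23 and 5.47). Ppara KO replicate 1 had no call of either mark near Asns, while replicate 2, the same liver in both marks, had 3 further H3K27ac intervals that no other library had. The H3K27ac peak names of that library also carry a different build word from the rest, and the part of this in the result was not tested. The H3K9ac peak over the Asns start was called in both the WT and the Cpt2 KO liver.

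Phgdh catalyses the first step of serine synthesis. It had no H3K27ac interval in its body. Inside Phgdh, H3K4me1 at chr3:98338697-98339210 was called at 5.49 and 6.35 in Cpt2 KO, 5.75 in Ppara KO replicate 2 and 7.50 and 8.50 in DKO, and in no WT liver. Nearer the start, H3K4me1 at chr3:98339444-98339766 was called in 1 liver each of WT (4.91), Cpt2 KO (5.49) and DKO (6.31).

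**Figure D3:**
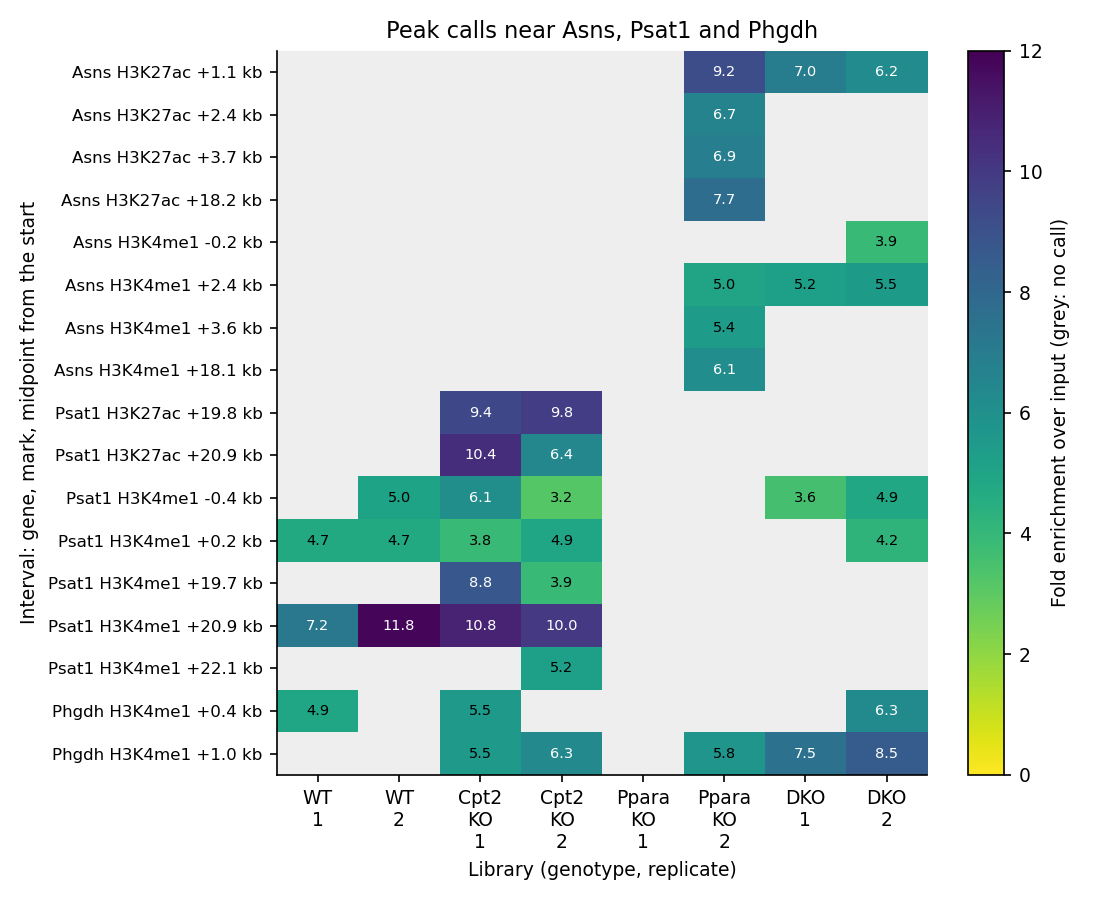
Fold enrichment over input (colour and number) of H3K27ac and H3K4me1 intervals near Asns and Psat1 and H3K4me1 intervals in Phgdh (rows, with the distance of the midpoint from the gene start in kb) in the 8 libraries of each mark (columns). Grey cells have no call. The Psat1 intervals 19721 to 22132 bases from the start have calls in WT or Cpt2 KO livers alone, and the Asns calls lie in Ppara KO replicate 2 and the DKO livers.

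Calls that separate genotypes were counted without a test, as called in at least 3 of 4 libraries of one side and none of the other. For Cpt2, 3 of the 54 H3K27ac intervals (5.56%) did so, against 6.99% of all. They were on the Cpt2-intact side (2.49% of all), with 0 on the null side (4.5% of all), and lay at Chac1 (chr2:119355346-119356074), Trib3 (chr2:152345116-152345857) and Sesn2 (chr4:132486306-132486901). The Sesn2 interval was called in all 4 Cpt2-intact livers, at 7.17 and 4.58 in WT and 5.34 and 4.71 in Ppara KO. For Ppara, 2 of 54 (3.70%) did so against 3.36%, 1 on the null side, at Asns (1.63% of all), and 1 on the intact side (1.73% of all). Leaving out WT replicate 1 reduced the Cpt2 count to 1. The Ppara count became 1 without WT replicate 1, WT replicate 2, Cpt2 KO replicate 2, Ppara KO replicate 2 or DKO replicate 1. The Asns interval no longer met the rule without Ppara KO replicate 2 or either DKO library. In H3K4me1 the counts were 0 of 64 for Cpt2 against 2.71% of all (1.41% on the null and 1.3% on the intact side), and 5 of 64 (7.81%) for Ppara against 4.81%, with Atf3 and Asns on the null side (1.96% of all) and 2 Atf4 intervals and Psat1 on the intact side (2.84% of all). These counts rose to 4 without Cpt2 KO replicate 2 and to 8 without Ppara KO replicate 1, and the latter fell to 3 without WT replicate 1, WT replicate 2, Cpt2 KO replicate 2 or DKO replicate 1.

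Both WT livers and no other had H3K27ac calls at 5 of the 54 intervals (9.26%, against 3.29% of all), 1 each near Ddit3, Atf4, Chac1, Trib3 and Sesn2. They were weak, with folds from 3.10 to 6.57. Cpt2 KO had 3 such intervals, 2 of them at Psat1 (5.56% against 1.83% of all), Ppara KO had 1 in Ddit3 (1.85% against 0.441%) and DKO had 0 (2.26% of all). In H3K4me1 the WT livers had 2, at Trib3 and Atf5 (3.12% against 1.85%), Cpt2 KO had 1 at Psat1 (1.56% against 0.621%), Ppara KO had 0 (0.153% of all) and DKO had 1 upstream of Sesn2 (1.56% against 1.22%). The share of the 54 H3K27ac intervals with a call was 51.9% and 64.8% for the WT libraries, where all intervals gave 52.2% and 51.5%. It was 44.4% and 46.3% for Cpt2 KO (54.5% and 53.8% of all), 40.7% and 50% for Ppara KO (51% and 48.8% of all) and 35.2% and 46.3% for DKO (55% and 59% of all). DKO had the largest shares over all intervals and, in replicate 1, the smallest near these genes. For the 64 H3K4me1 intervals the shares were 60.9% and 62.5% for WT (47.2% and 49.3% of all), 54.7% and 70.3% for Cpt2 KO (46.9% and 51% of all), 54.7% and 45.3% for Ppara KO (48.9% and 45% of all) and 48.4% and 54.7% for DKO (44.1% and 50.7% of all). The H3K4me1 interval nearest to the 10 kb limit on its inner side was at Sesn2, 8961 bases from the gene body, with folds of 5.2 and 5.43 in 2 libraries. The nearest beyond it was at Chac1, 13536 bases away, with folds of 4 to 5.61 in 4 libraries.

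**Figure D4:**
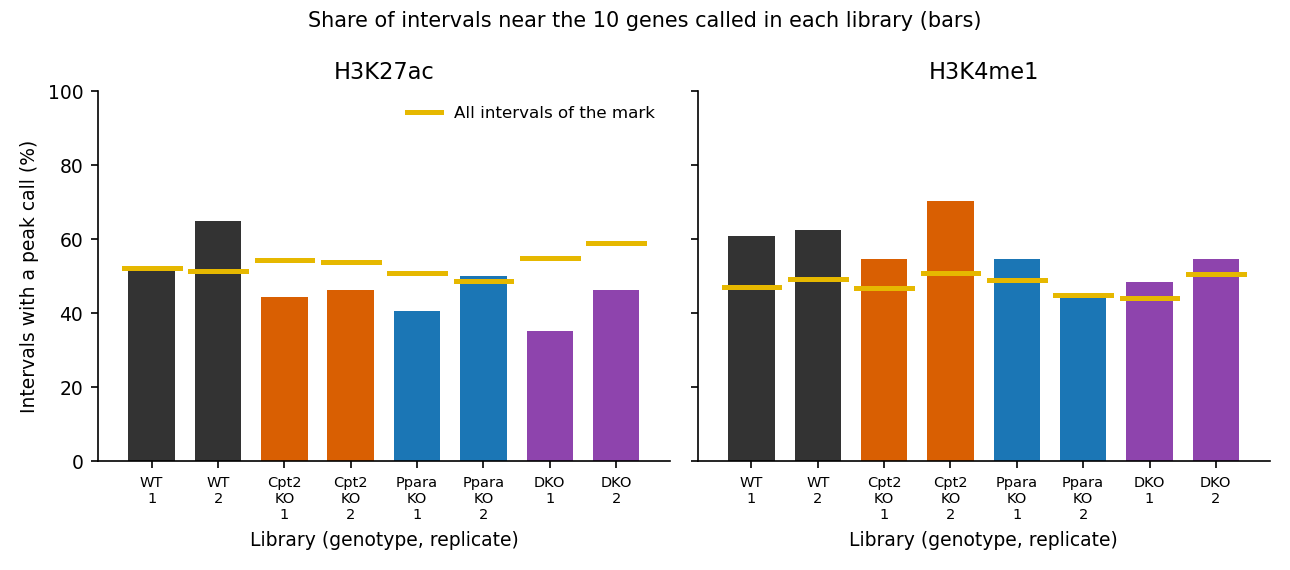
Share of the 54 H3K27ac and 64 H3K4me1 intervals near the 10 genes that had a peak call in each library (bars, y axis in percent), with the share of all intervals of the mark as a yellow dash across each bar. For H3K27ac, WT replicate 2 is above its dash at 64.8%, and both DKO libraries are below theirs at 35.2% and 46.3%.

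H3K9ac had a value for positions alone, in 1 liver of each of 2 genotypes, so there is no replicate check. Of the 46 intervals 29 (63.0%, against 55.2% of all) were called in both, 5 (10.9%, against 20.8%) in the WT liver alone and 12 (26.1%, against 23.9%) in the Cpt2 KO liver alone. Of those 12, 5 lay in or beside Atf3, 4 of them 2704 to 4521 bases inside the gene. The promoters of 7 genes were called in both livers, Psat1 in Cpt2 KO, and Phgdh in neither. The Atf4 start was not analysed here for this mark either. H3K27ac intervals near the 10 genes overlapped an H3K4me1 interval in 87.0% of cases (75.1% of all) and an H3K9ac interval in 61.1% (39.6% of all).

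A wider list of 59 genes of the same pathways, all matched, was counted beside the 10. It held 84 tested H3K27ac intervals at 47 genes, of which 8 (9.52%) passed under Cpt2 loss, 6 (7.14%) under Ppara loss and 10 (11.9%) in DKO against WT, below the 12.3%, 7.34% and 20.2% of all intervals. The kinases and phosphatase subunits of eIF2-alpha (8 intervals), the aminoacyl-tRNA synthetases (18) and the mitochondrial stress genes (9) gave 0 in all 6 contrasts by limma. In H3K4me1, 0 of 93 tested intervals passed in any contrast by limma. The wider list's differences named here kept their sign without centring and under quantile normalization.

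Of 6 tested intervals of amino acid transport genes, 2 rose under Cpt2 loss, where 4.9% of all intervals did, and 4 did not pass. At Slc7a5, the light chain of the large neutral amino acid transporter, folds were 13.9 and 8.54 for WT, 28.2 and 22.5 for Cpt2 KO, 17.1 and 19.2 for Ppara KO, and 27.2 and 25.2 for DKO (0.60 ± 0.19 in log2, limma adjusted p = 0.0487). At Slc7a1, a carrier of arginine and lysine, the Cpt2-null livers had 12.8 to 16.6 and the Cpt2-intact livers 5.75 to 9.75 (0.69 ± 0.20, limma adjusted p = 0.0371). Slc3a2, the heavy chain that partners Slc7a5, rose in DKO against WT (0.95 ± 0.26, limma adjusted p = 0.0218). Under Cpt2 loss the Slc7a5 call held without WT replicate 1 alone (limma adjusted p up to 0.144) and the Slc7a1 call without WT replicate 2 or Ppara KO replicate 1 alone (up to 0.133). The Slc3a2 call was lost without WT replicate 1 or either DKO library (up to 0.128 by limma). With the smallest peak width as a covariate none of these 3 passed, and the Slc7a5 difference under Cpt2 loss turned to -0.10 (limma adjusted p = 0.976). In these contrasts that fit cannot tell peak width from Cpt2 state.

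Of 16 tested intervals of serine, glycine and one-carbon genes, 4 at 3 genes fell under Cpt2 loss and 0 rose, where 7.38% and 4.9% of all intervals did, and 12 did not pass. Gldc, of the glycine cleavage system, had folds of 20.5 and 30.1 for WT, 9.20 and 8.11 for Cpt2 KO, 27.2 and 27 for Ppara KO, and 15.4 and 12.2 for DKO. The 4 Cpt2-null livers were all below the 4 Cpt2-intact ones (-1.52 ± 0.16 in log2, limma adjusted p = 0.00103). The others were 2 intervals at Mthfd1 (-1.02 ± 0.20 and -0.95 ± 0.17) and 1 at Shmt2 (-0.74 ± 0.21), enzymes of folate-bound one-carbon units. The Gldc and Mthfd1 calls held without each of the 8 libraries in turn (highest limma adjusted p 0.00924, 0.0418 and 0.0312) and without centring, where the differences were -1.25, -0.76 and -0.68. With the smallest peak width as a covariate they kept their sign and did not pass (-0.70, -0.89 and -0.27, limma adjusted p = 0.727, 0.752 and 0.909). That fit cannot tell peak width from Cpt2 state, and it passed 0 of all intervals under Cpt2 loss. The Shmt2 call was lost without centring (-0.48, limma adjusted p = 0.123) and without 6 of the 8 libraries, holding without WT replicate 2 or DKO replicate 2. Under Ppara loss 2 of the 16 rose and 1 fell, where 7.34% of all intervals passed in either direction. The second Mthfd1 interval was the one that fell (-0.63 ± 0.17, limma adjusted p = 0.0388). That call was lost without centring (-0.60, limma adjusted p = 0.0798). Both that rose were at Sds, which breaks serine down to pyruvate (0.65 ± 0.14 and 0.80 ± 0.17, limma adjusted p = 0.0149 and 0.0139). The first Sds call was lost without Cpt2 KO replicate 2, Ppara KO replicate 1 or DKO replicate 1, and the second without Cpt2 KO replicate 2, Ppara KO replicate 2 or DKO replicate 1 (limma adjusted p up to 0.0694 and 0.057).

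The unfolded protein response genes had 12 tested intervals, of which 1 passed under Cpt2 loss and 2 under Ppara loss, all higher. Of all intervals 12.3% passed under Cpt2 loss in either direction and 4.9% passed as higher, and 7.34% passed under Ppara loss in either direction. Pdia4, a protein disulfide isomerase of the endoplasmic reticulum, had the largest differences among the intervals of the wider list that passed. Its folds were 6.00 and 3.91 for WT, 28.8 and 23.1 for Cpt2 KO, 16.9 and 19.0 for Ppara KO, and 25.9 and 27.8 for DKO, so that both WT livers lay far below the other 6. It rose over WT by 2.19 ± 0.26 in log2 in Cpt2 KO (limma adjusted p = 0.00229), 1.90 ± 0.26 in Ppara KO (0.00533) and 2.17 ± 0.26 in DKO (0.000917); the 3 comparisons share the WT livers. Each held without every one of the 8 libraries in turn (highest limma adjusted p 0.0211, 0.0434 and 0.00634). With the smallest peak width as a covariate the differences were 1.26, 1.62 and 1.27 and did not pass (limma adjusted p = 0.672, 0.055 and 0.535). For Cpt2 KO and DKO that fit cannot tell peak width from Cpt2 state. Ern1, which encodes the stress sensor IRE1, rose under Ppara loss (1.01 ± 0.24, limma adjusted p = 0.0224), a call lost without any one of 5 libraries, WT replicate 2, both Cpt2 KO, Ppara KO replicate 2 and DKO replicate 2 (up to 0.0879 by limma), and with the width covariate (0.0548 by limma). Atf6, another stress sensor, fell in Cpt2 KO against WT (-0.79 ± 0.23, limma adjusted p = 0.0402), a call lost without centring (0.203 by limma) and without WT replicate 2 or any Cpt2 KO or Ppara KO library (up to 0.196). Cebpb, the C/EBP partner of ATF4, and Gadd45a, a damage-induced gene, fell in Cpt2 KO against WT (-1.06 ± 0.26 and -1.44 ± 0.32, limma adjusted p = 0.0194 and 0.015). Neither passed for Cpt2-null against Cpt2-intact livers. Cebpb folds were 23.6 and 28.7 for WT, 18.2 and 11.7 for Cpt2 KO, and 18.7 and 31.6 for DKO. Gadd45a folds were 15.9 and 20.9 for WT, 6.14 and 10 for Cpt2 KO, and 9.43 and 15.4 for DKO. For Ppara KO they were 21.4 and 15.7 at Cebpb and 7.04 and 12.4 at Gadd45a. The Cebpb call was lost without WT replicate 2 or either Cpt2 KO library and without centring (limma adjusted p = 0.0562), and the Gadd45a call without WT replicate 2 or Cpt2 KO replicate 1 (up to 0.154 by limma). Cbs, of the route from homocysteine to cysteine, fell under Cpt2 loss (-0.78 ± 0.20, limma adjusted p = 0.0258), a call lost without centring (0.098 by limma) and without each library but WT replicate 1. Got1, an aspartate aminotransferase, had folds of 12.2 to 23.7 in Ppara-intact and 31.2 to 36.1 in Ppara-null livers. It rose under Ppara loss (0.98 ± 0.18, limma adjusted p = 0.00568) and held without each library in turn (up to 0.0259 by limma) and with the smallest peak width as a covariate (0.013 by limma).

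**Figure D5:**
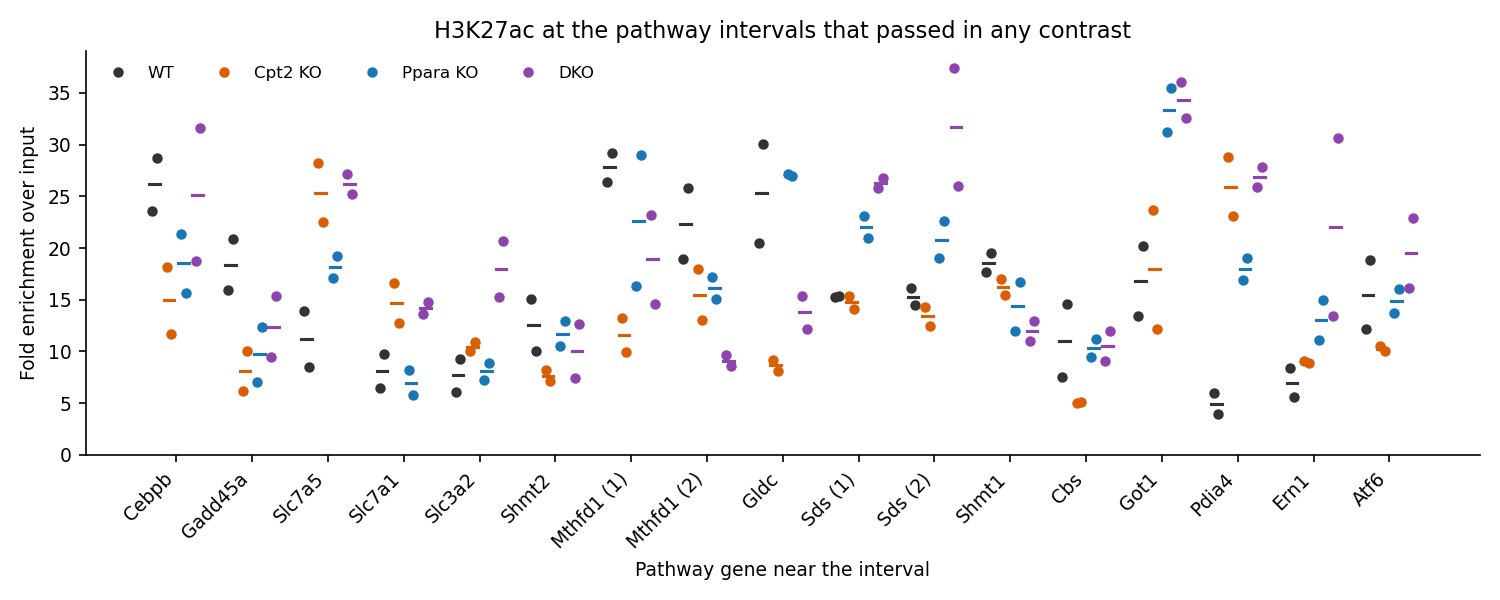
H3K27ac fold enrichment over input (y axis, linear) at the intervals of the wider pathway list that passed in at least 1 of 6 contrasts (x axis, numbered where a gene has more than 1). Points are single livers and short lines the means of 2. Pdia4 shows WT at 6.00 and 3.91 under every knockout liver, and Gldc shows Cpt2 KO at 9.20 and 8.11 under WT and Ppara KO.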

How the data were processed

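H3K27ac and H3K4me1 were profiled in 2 livers of each of 4 genotypes and H3K9ac in 1 WT and 1 Cpt2 KO liver. Reads were aligned to mm10 with BWA and peaks called with MACS2 2.1.0, per the submitters' processing notes. The deposited narrowPeak lists, 1 per library, give each peak a fold enrichment ratio over an input that the labels describe as pooled, and a −log10 q. The deposited H3K9ac lists give positions. Depth is not given in the sources used here, so no counting error can be stated.

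The intervals were the authors' deposited consensus intervals of each mark, and how they were made is not given in the sources used here. An interval took the highest fold among a library's peaks that share at least 1 base with it. Intervals called in all 8 libraries were tested as log2 fold, centred on each library's median, with limma 3.58.1 in R 4.3.3. Each mark had 1 fit of 4 genotype means with a trend in the prior variance, 6 contrasts and Benjamini-Hochberg adjustment over all its intervals, with a threshold of 0.05. The scripts were tested on simulated data. P-values measure the spread between 2 livers a genotype. Intervals with fewer calls were described by calls. The values of 2 intervals are not reported here.

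Gene positions and promoters came from RefSeq tables on GRCm38.p6, the assembly that mm10 names. For each gene and mark the rule named the interval called in the most libraries with the highest mean fold, intervals that passed and those whose calls separate the Cpt2 or Ppara states. Other named intervals were added after their values were seen. The rule for likeness took the 3 intervals of other genes with the highest correlation to the member of lowest adjusted p. The genes, lists and tests were chosen with earlier results of these data known. Peak numbers run in genome order, and skipped numbers were counted. Alternatives were other normalizations, filters and overlaps, filled calls, a replicate block, a peak-width covariate and leaving out each library.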

Additional observations from a re-analysis of the deposited data

How the results depend on the processing

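Limits: the 14 tested H3K27ac and 20 tested H3K4me1 intervals rest on 2 livers a genotype, read depth is unknown, and Asns, Psat1 and Phgdh are described by calls alone. Counts of H3K27ac intervals that passed changed in these settings, and the cause was not tested unless said. Under Cpt2 loss the count of 2 became 1 with quantile normalization (Sesn2), 1 without centring (Trib3, higher) and 0 with the smallest peak width as a covariate. With that covariate 0% of all H3K27ac intervals passed under Cpt2 loss and in the contrasts of Cpt2 KO or DKO with WT. In these contrasts the fit cannot tell peak width from Cpt2 state. In DKO against WT the count of 2 became 1 with quantile normalization (Trib3) and 0 with the peak width. With intervals called in at least 2 libraries and the rest set to the lowest fold of their own list, 35 intervals were tested. Of these, 13 passed under Cpt2 loss (3 higher, 10 lower), 8 under Ppara loss, 7 for the interaction, and, against WT, 10 for Cpt2 KO, 6 for Ppara KO and 10 for DKO. Over all 47873 intervals so tested the shares were 25.1%, 20.6%, 10.5%, 22.4%, 12.7% and 30.7% in the same order. That construction tests more intervals and turns missing calls into low folds. In H3K4me1 it gave 1 of 50 under Ppara loss (Psat1, lower). In Cpt2 KO against WT the count of 0 became 1, at Chac1, with a minimum −log10 q of 10 (limma adjusted p = 0.0451). In Ppara KO against WT it became 1 with quantile normalization, at the downstream Atf4 interval (-1.07, limma adjusted p = 0.0429). With the same minimum, H3K4me1 intervals on 1 side for Cpt2 went from 0 to 1 (Trib3). The Ddit3 H3K4me1 difference of DKO from WT turned to -0.05 with the peak width as a covariate. The differences past the threshold at Chac1, Sesn2 and Trib3 kept their direction in the alternatives run.

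Leaving out 1 library at a time gave H3K27ac counts of 0 to 1 under Cpt2 loss, 0 to 1 in Cpt2 KO against WT, 0 to 2 in DKO against WT and 0 in the other contrasts. Intervals on 1 side numbered 1 to 3 for Cpt2 and 1 to 2 for Ppara. In H3K4me1 they numbered 0 to 4 and 3 to 8, and DKO against WT gave 0 to 1. With the replicate number as a block, Chac1 passed in Cpt2 KO against WT, a count of 1 (-0.88, limma adjusted p = 0.0453), and no other count changed. Same-numbered livers of different genotypes are different animals, and their deviations correlated at -0.065 to 0.17 in H3K27ac and -0.49 to 0.10 in H3K4me1, so the numbers were not used as pairs. An overlap of 50%, members within 5 kb and the mean fold of overlapping peaks left all counts within 1.5 times.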
